A study of Mus musculus with 3 samples.

Results

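The 10 genes described here encode innate sensors of nucleic acids and microbes together with their shared adaptors: Tlr2, Tlr3, Tlr4, Tlr7, Tlr9, Tlr13, Myd88, Ifih1, Ddx58 and Tmem173. They were taken by symbol from the 31053 genes of a mouse brain single-cell RNA sequencing (scRNA-seq) matrix, and all 10 were found. The matrix held 35968 cell barcodes from 3 libraries of brain tissue, 1 each from control, ischemic stroke and hemorrhagic stroke mice of the strain labelled C56BL6 at 10 weeks of age. Ischemic stroke was made by middle cerebral artery occlusion and hemorrhagic stroke by collagenase injection, with tissue of several mice per condition and 1 library per condition. The libraries were told apart only by a barcode suffix (1 to 3), which the sources used here do not pair with a condition, so levels were described across cell classes and no condition was compared.

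Toll-like receptors (TLRs) are membrane proteins that bind microbial or damaged-cell molecules. Tlr2 and Tlr4 sit at the cell surface, where they bind bacterial lipoproteins and lipopolysaccharide, whereas Tlr3, Tlr7, Tlr9 and Tlr13 act in endosomes, where they bind double-stranded RNA, single-stranded RNA, CpG DNA and bacterial ribosomal RNA. Myd88 is the adaptor that these receptors share, except Tlr3. Ifih1 (MDA5) and Ddx58 (RIG-I) are cytosolic helicases that bind viral-type RNA, and Tmem173 (STING) relays the signal of cytosolic DNA. Microglia, the resident macrophages of the brain, are known for expressing many of these genes, and type I interferon is known to raise the transcripts of Ifih1 and Ddx58.

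The unit was the unique molecular identifier (UMI), which counts captured transcript molecules near their 3′ end. After barcodes with under 1000 UMIs (2862) or over 30% mitochondrial UMIs (1124) were left out, 31982 remained, and 28978 of them fell into exactly 1 class by the share of raw marker UMIs. Classes are called "-like" because they were set by marker thresholds. The 15 classes with at least 50 cells were compared, led by 11426 microglia-like cells (C1qa, C1qb, C1qc), 9794 oligodendrocyte-like cells and 2489 T-cell-like cells. The library of suffix 3 stood apart in its makeup: it held 1021 of 1040 endothelial-like, 185 of 208 mural-like and 159 of 191 border-macrophage-like cells but 25 T-cell-like cells, whereas suffix 1 held 221 of 303 neutrophil-like cells. Markers not used for the thresholds were highest in their own class for 6 of 7 microglial genes (Csf1r was higher in border-macrophage-like cells) and for all 4 neutrophil genes. They did so for 1 of 3 monocyte genes, and 449 barcodes lay just below or just above the monocyte threshold against 74 cells in the class. Likewise 684 barcodes lay near the neuron threshold against 136 cells, and 71 near the dendritic one against 50 cells. Values of these 3 classes are given with that limit. No such further markers were set for neuron-like and choroid-plexus-like cells. Levels are CPM, in which the UMIs of a gene were summed over the cells of a class and scaled to a common total, with exact 95% Poisson intervals that cover counting error only. With 1 library per condition no test was possible, and the values of the 3 libraries stand as the only spread.

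Microglia-like cells had the highest CPM of the 15 classes for Ifih1, Tmem173 and Tlr9, neutrophil-like cells for Tlr2, Tlr4, Tlr13, Myd88 and Ddx58, astrocyte-like cells for Tlr3, and border-macrophage-like cells for Tlr7. The microglia-like class was thus highest for 3 of 10 sensors, where 3.23% of the 14790 genes with at least 100 UMIs were highest in that class. For the neutrophil-like class that share of genes was 6.27%. The first place is not settled for Tlr9 (1.18 times the monocyte-like level, 0.210 to 46.9) and Tmem173 (1.23 times the dendritic-like level, 0.832 to 1.90). Ifih1 lost it when the libraries were weighted equally. For 6 sensors (Tlr2, Tlr7, Tlr9, Tlr13, Ifih1 and Tmem173) the microglia-like CPM was at least 2 times that of every non-myeloid class, against 3.83% of all genes. Tlr9 is in this count with few UMIs: it had 0 UMIs in several classes, and the lower limit of its ratio was 0.625 against mural-like cells, so its fold there is undetermined. No sensor had its highest level in a lymphocyte, oligodendrocyte-lineage, vascular or neuronal class.

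**Figure D1:**
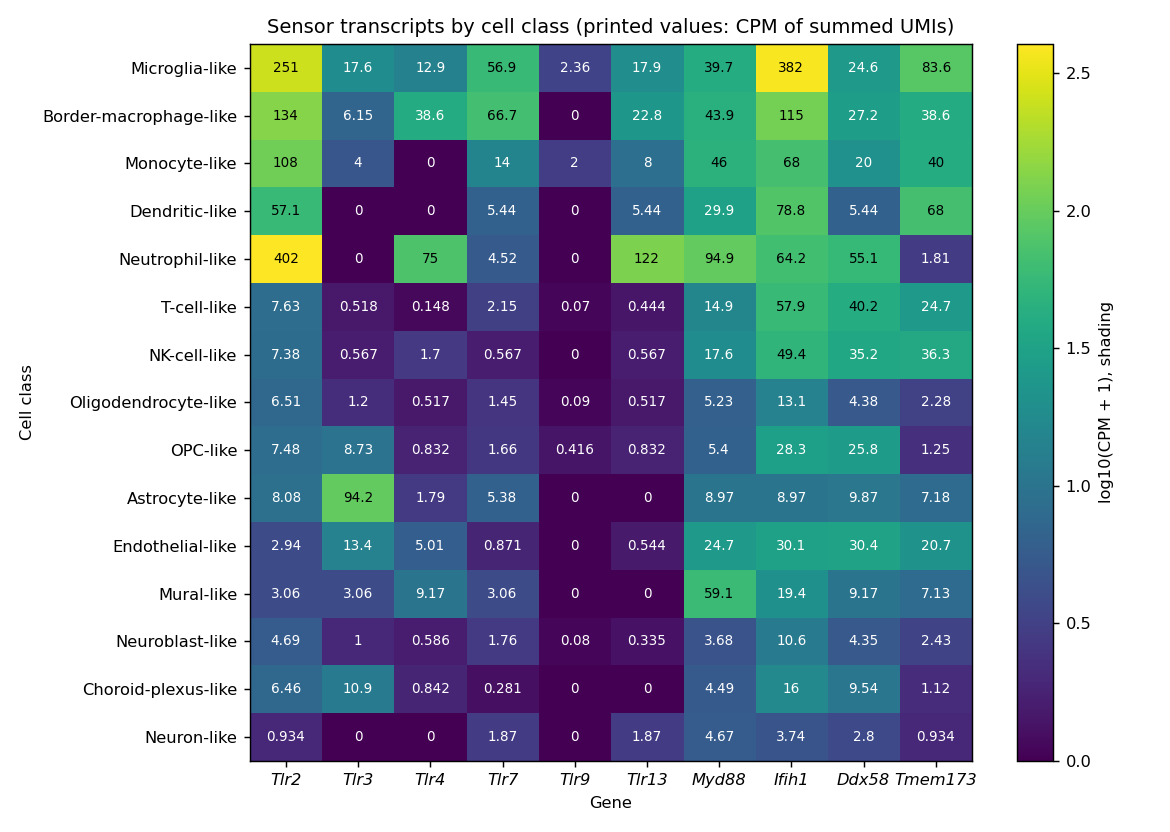
Heat map of the 10 sensor genes (columns) in the 15 cell classes (rows); printed values are CPM of summed UMIs and the shading is log10(CPM + 1). High values of Tlr2, Tlr4 and Tlr13 sit in the neutrophil-like row (402, 75.03 and 122 CPM), those of Ifih1 and Tmem173 in the microglia-like row (382 and 83.6 CPM), and Tlr3 peaks in the astrocyte-like row (94.2 CPM).

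Among the surface receptors, Tlr2 (chromosome 3, 83836272-83841767, minus strand, GRCm38) was measured at 402 CPM in neutrophil-like cells (366 to 441) and 251 CPM in microglia-like cells (248 to 255). Neutrophil-like cells of suffix 1, 2 and 3 had 452, 355 and 155 CPM of Tlr2, and microglia-like cells 284, 266 and 114 CPM. In both classes the library of suffix 3 was the lowest, and within each library the neutrophil-like value was the higher. Border-macrophage-like cells (134 CPM) and monocyte-like cells (108 CPM) came next, with overlapping intervals, and no class outside the myeloid ones exceeded 8.08 CPM. The microglia-like value was above the border-macrophage-like one in 2 of the 3 libraries, and above the monocyte-like one in 2 of the 3. Neither order held in every library. A Tlr2 UMI was found in 57.8% of microglia-like cells (median of 7447 UMIs per cell) and in 3.62% of T-cell-like cells (median of 4741).

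Tlr4 (chromosome 4, 66827584-66930284, plus strand), the lipopolysaccharide receptor, had 75.03 CPM in neutrophil-like cells (59.8 to 93.0), 38.6 CPM in border-macrophage-like cells (28.1 to 51.9) and 12.9 CPM in microglia-like cells (12.2 to 13.6). Neutrophil-like values in the 3 libraries were 87.9, 41.4 and 38.7 CPM, border-macrophage-like values 61.5, 40.6 and 37.0 CPM and microglia-like values 11.8, 9.90 and 28.3 CPM. The microglia-like class was therefore below both other classes in every library, although the border-macrophage-like values of suffix 1 and 2 rest on 4 and 3 UMIs and the neutrophil-like ones of suffix 2 and 3 on 7 and 5. In T-cell-like cells 0.0804% had a Tlr4 UMI, against 21.1% of neutrophil-like cells, whose median depth was lower (2954 UMIs).

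Tlr3 (chromosome 8, 45395665-45411080, minus strand) was the 1 sensor with its highest level outside the myeloid classes. It was measured at 94.2 CPM in astrocyte-like cells (77.1 to 114), 5.35 times the microglia-like level of 17.6 CPM (interval of the ratio 4.35 to 6.52). The astrocyte-like values were 109, 132 and 77.6 CPM in the 3 libraries, and the microglia-like values 17.4, 16.0 and 24.9 CPM. The astrocyte-like class was the higher in each library. A UMI of Tlr3 was found in 26.2% of 305 astrocyte-like cells, at a median of 2805 UMIs per cell, and in 0 of 303 neutrophil-like cells, at a median of 2954 UMIs (3 UMIs there would be 2.71 CPM). Endothelial-like (13.4 CPM) and choroid-plexus-like cells (10.9 CPM) followed the microglia-like class. In astrocyte-like cells with and without a UMI of Agt, which encodes angiotensinogen and marks regional astrocytes, Tlr3 was at 99.8 and 89.3 CPM, a ratio of 1.12 (0.747 to 1.67). These subsets pooled the 3 libraries and were chosen after the class values had been seen, and the interval leaves room for a difference in either direction.

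The remaining endosomal receptors were found mostly in myeloid cells. Tlr7 (chromosome X, 167304929-167330558, minus strand) was at 66.7 CPM in border-macrophage-like cells (52.6 to 83.5) and 56.9 CPM in microglia-like cells (55.4 to 58.3), which do not differ beyond their counting error. Microglia-like cells of the 3 libraries had 66.2, 49.1 and 68.1 CPM of Tlr7, and 35.6% of all of them held a UMI, against 0.344% of NK-cell-like cells (median of 5514 UMIs). Every class after these had at most 14.0 CPM. Tlr9 (chromosome 9, 106222598-106226883, plus strand) was the least detected, with 244 UMIs in microglia-like cells (2.36 CPM, 2.08 to 2.68) and 2.71, 2.23 and 2.12 CPM in the 3 libraries. It had 10 UMIs in all other compared classes together, 6 of them in oligodendrocyte-like cells. Among border-macrophage-like cells 0 UMIs of Tlr9 were counted (3 UMIs there would be 2.63 CPM, and the exact upper limit is 3.24 CPM), and monocyte-like cells had 1 UMI (interval 0.0507 to 11.1 CPM), so a difference from these classes was not detectable at this depth.

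Tlr13 (chromosome X, 106143204-106160493, plus strand) was at 122 CPM in neutrophil-like cells (102 to 144), 22.8 CPM in border-macrophage-like cells (14.9 to 33.5) and 17.9 CPM in microglia-like cells (17.1 to 18.8). The neutrophil-like values were 141 and 112 CPM in suffix 1 and 2 but 15.5 CPM in suffix 3, where 2 UMIs in 21 cells were counted. Microglia-like cells had 20.1, 15.6 and 22.9 CPM, so in suffix 3 the order of these classes turned. A UMI of Tlr13 was seen in 30.4% of neutrophil-like and 0.241% of T-cell-like cells.

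Myd88 (chromosome 9, 119335934-119341411, minus strand), the common adaptor, was more evenly spread. Its level was 94.9 CPM in neutrophil-like cells (77.6 to 115), 59.1 CPM in mural-like cells (44.9 to 76.4) and 39.7 CPM in microglia-like cells (38.5 to 41.0), and endothelial-like cells had 24.7 CPM. Neutrophil-like values were 91.6, 94.6 and 116 CPM in the 3 libraries, whereas microglia-like values were 29.9, 32.6 and 93.2 CPM. Microglia-like cells of suffix 3 had about the neutrophil-like level of the other libraries. Within suffix 3, which held most mural-like and endothelial-like cells, Myd88 was at 56.4 CPM in mural-like and 24.4 CPM in endothelial-like cells, so the order of microglia-like and mural-like cells turned there. Neurons, neuroblasts, choroid plexus and oligodendrocyte-lineage classes lay at 3.68 to 5.40 CPM.

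Of the cytosolic sensors, Ifih1 (chromosome 2, 62595798-62646255, minus strand) was at 382 CPM in microglia-like cells (379 to 386), with 364, 421 and 262 CPM in the 3 libraries and a UMI in 66.8% of cells. Border-macrophage-like cells had 115 CPM (96.2 to 136.5). Their values were 323, 663 and 61.0 CPM, and the first and second rest on 21 and 49 UMIs in 16 cells each. In suffix 2 the border-macrophage-like value was thus above the microglia-like one, and with the libraries weighted equally Ifih1 was no longer highest in microglia-like cells. Dendritic-like, monocyte-like, neutrophil-like, T-cell-like and NK-cell-like cells had overlapping intervals at 78.8, 68.0, 64.2, 57.9 and 49.4 CPM. Of the 71 UMIs in neutrophil-like cells 68 came from suffix 1. In neuron-like cells 2.94% held an Ifih1 UMI (median of 6035.5 UMIs).

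Ddx58 (chromosome 4, 40203773-40239828, minus strand) was the 1 sensor that was not higher in microglia-like than in T-cell-like cells. Neutrophil-like cells had 55.1 CPM (42.2 to 70.8), T-cell-like cells 40.2 CPM (36.9 to 43.7), NK-cell-like cells 35.2 CPM (27.0 to 45.1), endothelial-like cells 30.4 CPM (26.9 to 34.2) and microglia-like cells 24.6 CPM (23.6 to 25.6). The T-cell-like values were 32.1, 46.9 and 16.6 CPM in the 3 libraries, the last from 2 UMIs, against 22.9, 26.4 and 21.0 CPM in microglia-like cells. Oligodendrocyte-like cells had 4.38 CPM and neuroblast-like cells 4.35 CPM, whereas OPC-like cells (oligodendrocyte precursors) had 25.8 CPM.

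Tmem173 (chromosome 18, 35733679-35740554, minus strand) was at 83.6 CPM in microglia-like cells (81.8 to 85.3) and 68.0 CPM in dendritic-like cells (44.0 to 100.3), a ratio of 1.23 (0.832 to 1.90). Its microglia-like values were 78.9, 69.1 and 156 CPM, with suffix 3 the highest. NK-cell-like (36.3 CPM), T-cell-like (24.7 CPM) and endothelial-like cells (20.7 CPM) followed the other myeloid classes. Neutrophil-like cells were the exception among myeloid classes, with 2 UMIs of Tmem173 in 303 cells (1.81 CPM, 0.219 to 6.53). There 0.660% of cells had a UMI, against 46.8% of microglia-like cells.

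Counted pairwise, 9 of 10 sensors were at least 2 times higher in microglia-like than in T-cell-like cells on CPM + 1 (all but Ddx58), where 17.2% of all genes were, and 0 were lower by this measure (12.8% of genes). All 10 were higher by this measure than in oligodendrocyte-like cells (17.1% of all genes) and in neuroblast-like cells (15.6%), where 31.0% and 42.7% of all genes were lower. Against endothelial-like cells 7 were higher (12.4%, not Tlr3, Myd88 and Ddx58) and 0 lower (26.4%). Within suffix 3, which held 1021 of the 1040 endothelial-like cells, Myd88 was at 93.2 CPM in microglia-like against 24.4 CPM in endothelial-like cells. Against neutrophil-like cells 5 were higher (34.7% of genes) and 4 were lower (11.1% of genes), the latter being Tlr4, Tlr13, Myd88 and Ddx58. Against border-macrophage-like cells 4 were higher (9.84%, being Tlr3, Tlr9, Ifih1 and Tmem173) and 1, Tlr4, was lower (10.1% of genes). For Ifih1 the microglia-like value was the higher in 2 of the 3 libraries only, as given above. Since suffix 3 held 159 of the 191 border-macrophage-like cells, the pooled fold of Ifih1 rests mostly on that library. Tlr9, at 0 UMIs in neutrophil-like and border-macrophage-like cells, had lower limits of 0.704 and 0.725 for its ratio there, so its place in these counts is undetermined too. The microglia-like over T-cell-like ratio ran from 2.67 for Myd88 and 3.38 for Tmem173 to 87.2 for Tlr4, which rests on 2 UMIs in T-cell-like cells, and it was 0.612 for Ddx58. Suffix 3, where microglia-like Myd88 and Tmem173 were highest, held 2045 microglia-like but only 25 of the 2489 T-cell-like cells. Without it the log2 ratio of Myd88 was 1.09 against 1.42. Under the settings tried, 3 ratios of Myd88 and 4 of Tmem173 left their main interval.

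Single microglia-like cells held UMIs of a median of 3 of the 10 sensors, 16.8% of them held at least 5, and 7.47% held none. Border-macrophage-like cells held a median of 2 and neutrophil-like cells of 1. When every cell was thinned to 1000 UMIs, the mean number was 0.725 in microglia-like, 0.710 in neutrophil-like, 0.382 in border-macrophage-like, 0.153 in T-cell-like and 0.0305 in oligodendrocyte-like cells. At equal depth, neutrophil-like and microglia-like cells thus carried nearly the same number of detected sensors, in a different composition.

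The C1q transcripts, made by microglia and border macrophages, were counted at 148 to 848 CPM in the other classes. To set the sensors against that level, the C1q UMIs of each class and library were multiplied by the sensor-to-C1q ratio of the microglia-like cells. Of the 130 pairs of a sensor and a class outside microglia-like and border-macrophage-like cells, 80 had a lower limit above this level and 50 did not, whereas 81.4% of all gene and class pairs did. Barcodes with a high C1q share were kept out of the other classes by construction, so the expected level may be a low estimate, which was not tested. With P2ry12, Siglech, Tmem119 and Ctss as the reference in place of C1q, 67 pairs were above it. This reference changed the expected UMIs unevenly. Those of Tlr2 rose from 3.47 to 22.8 in monocyte-like and from 1.19 to 17.9 in dendritic-like cells, against 77.3 to 132 in T-cell-like cells. Whether those 2 myeloid classes hold reference transcripts of their own was not tested.

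The sensors fell far above the line in some classes and near it in others. Tlr3 in astrocyte-like cells was 217 times the expected CPM, Tlr4 and Tlr13 in neutrophil-like cells were each 193 times, and Ddx58 was 238 times in endothelial-like and 76.0 times in T-cell-like cells. Tmem173 was 22.4 times the expected level in endothelial-like, 21.5 times in NK-cell-like and 16.2 times in T-cell-like cells. Near the line lay Tlr2 in T-cell-like cells (7.63 CPM observed, 5.72 expected), which was below the level given by the other markers, and Tmem173 in neutrophil-like cells (1.81 observed, 2.59 expected). In oligodendrocyte-like cells Tlr2, Tlr4, Tlr7, Tlr13, Ifih1 and Tmem173 were at 1.44 to 2.07 times the expected level, whereas Tlr3, Myd88 and Ddx58 were at 3.80, 6.70 and 10.6 times. By the other reference, Tlr7, Tlr13 and Tmem173 in oligodendrocyte-like cells were not above the expected level, and 535 barcodes that passed both the microglial and the oligodendrocyte threshold had been left out. How much of these low levels is carried-over RNA was not tested.

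**Figure D2:**
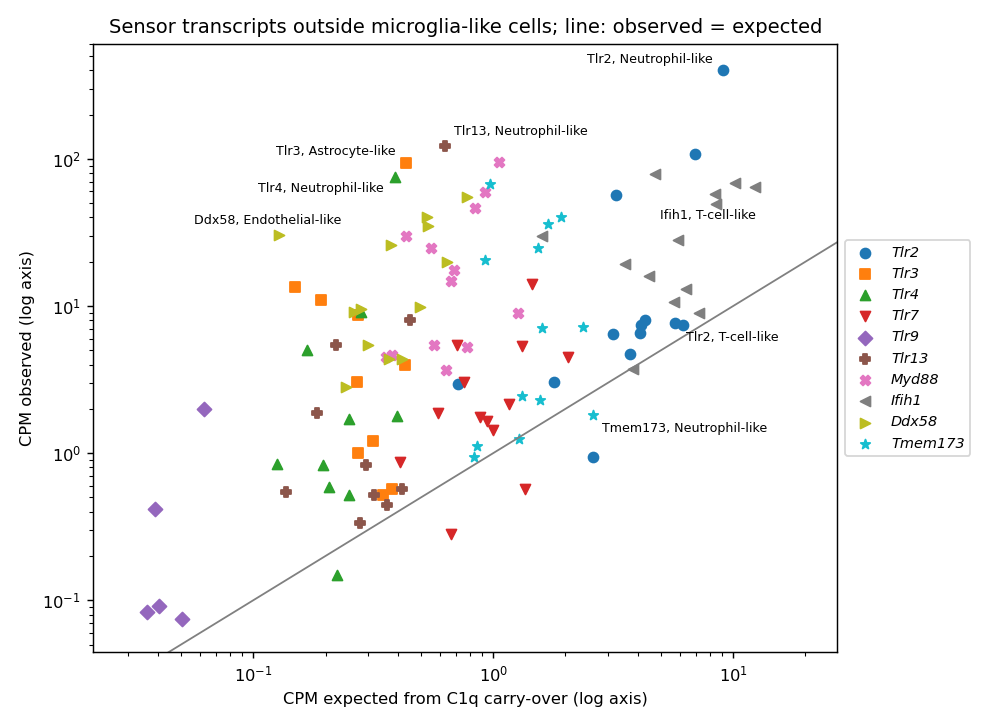
Observed CPM (vertical, log axis) against the CPM expected from C1q carry-over (horizontal, log axis) for 113 pairs of a sensor and a class outside microglia-like and border-macrophage-like cells; the 17 pairs with 0 UMIs are not drawn and the line marks equality. Tlr3 in astrocyte-like cells lies at 217 times the line, while Tlr2 in T-cell-like cells (7.63 against 5.72 CPM) and Tmem173 in neutrophil-like cells lie close to it.

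Within microglia-like cells the libraries differed by more than their counting error for most sensors. Suffix 3 had 114 CPM of Tlr2 against 284 and 266 in the others, and its largest distances in the other direction were in Tlr4 (28.3), Myd88 (93.2) and Tmem173 (156). Ddx58 (21.0 to 26.4 CPM) and Tlr9 (2.12 to 2.71 CPM) were the most even. What distinguishes the libraries, a condition, a batch or both, cannot be told apart here.

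**Figure D3:**
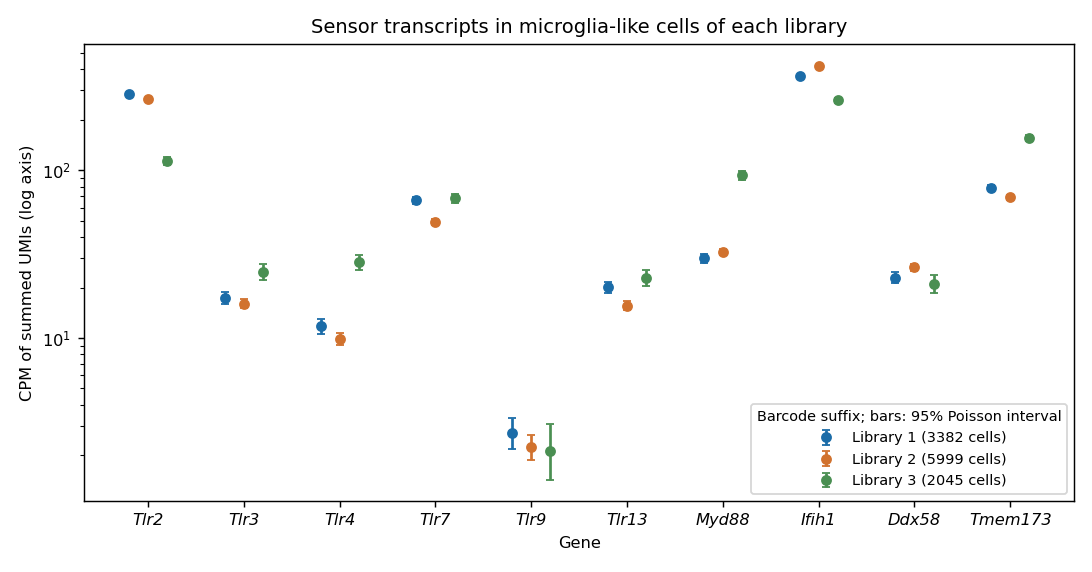
CPM (log axis) of each sensor in microglia-like cells of the libraries with barcode suffix 1, 2 and 3 (3382, 5999 and 2045 cells); bars are 95% Poisson intervals. The suffix 3 point is the lowest for Tlr2 (114 CPM), Ifih1 (262 CPM), Ddx58 (21.0 CPM) and Tlr9 (2.12 CPM) and the highest for Tlr3, Tlr4, Tlr7, Tlr13, Myd88 and Tmem173.

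The microglia-like cells were then split, within each library, by the share of UMIs from 10 interferon-stimulated genes (Ifit1, Ifit2, Ifit3, Isg15, Rsad2, Oasl1, Usp18, Cmpk2, Ifi204 and Irf7), none of them a sensor of the set. The 25% of cells with the highest and the 25% with the lowest share (top and bottom group) held 2855 cells each, with a median of 9428 and 5657 UMIs. Ifih1 was at 598 CPM in the top and 121 CPM in the bottom group, a ratio of 4.96 (4.77 to 5.17), with ratios of 6.02, 5.05 and 2.55 in the 3 libraries. Ddx58 was at 37.2 against 11.6 CPM, a ratio of 3.19 (2.78 to 3.67), with 2.88, 3.60 and 2.32 in the libraries. Both helicases were thus higher in the top group of every library, and thinning all cells to 1000 UMIs left Ifih1 at 670 against 139 CPM and Ddx58 at 45.2 against 12.3 CPM.

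The other sensors differed less between these groups. Tlr2 had a ratio of 1.52 (1.43, 1.68 and 1.01 in the libraries), Tlr3 1.24 (1.63, 1.12 and 1.05) and Tlr4 1.22 (1.48, 1.13 and 1.08). Tlr7 had a ratio of 1.18 (1.10 to 1.27), with 1.35, 1.14 and 0.999 in the libraries. Myd88 (1.01, 0.918 to 1.10), Tmem173 (1.05, 0.990 to 1.12) and Tlr9 (0.953, 0.641 to 1.42) had intervals that include 1, and Tlr13 had a ratio of 0.852 (0.747 to 0.972). In all, 5 of 10 sensors had an interval above 1 and were higher in each library, against 8.4% of all genes, and 1, Tlr13, had one below 1 and was lower in each (30% of genes). Without suffix 1 the first count was 3 (Tlr2, Ifih1 and Ddx58). Tlr2, Tlr3, Tlr4 and Tlr7 left or entered it with the settings tried, whereas Ifih1 and Ddx58 were in it under every setting tried.

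**Figure D4:**
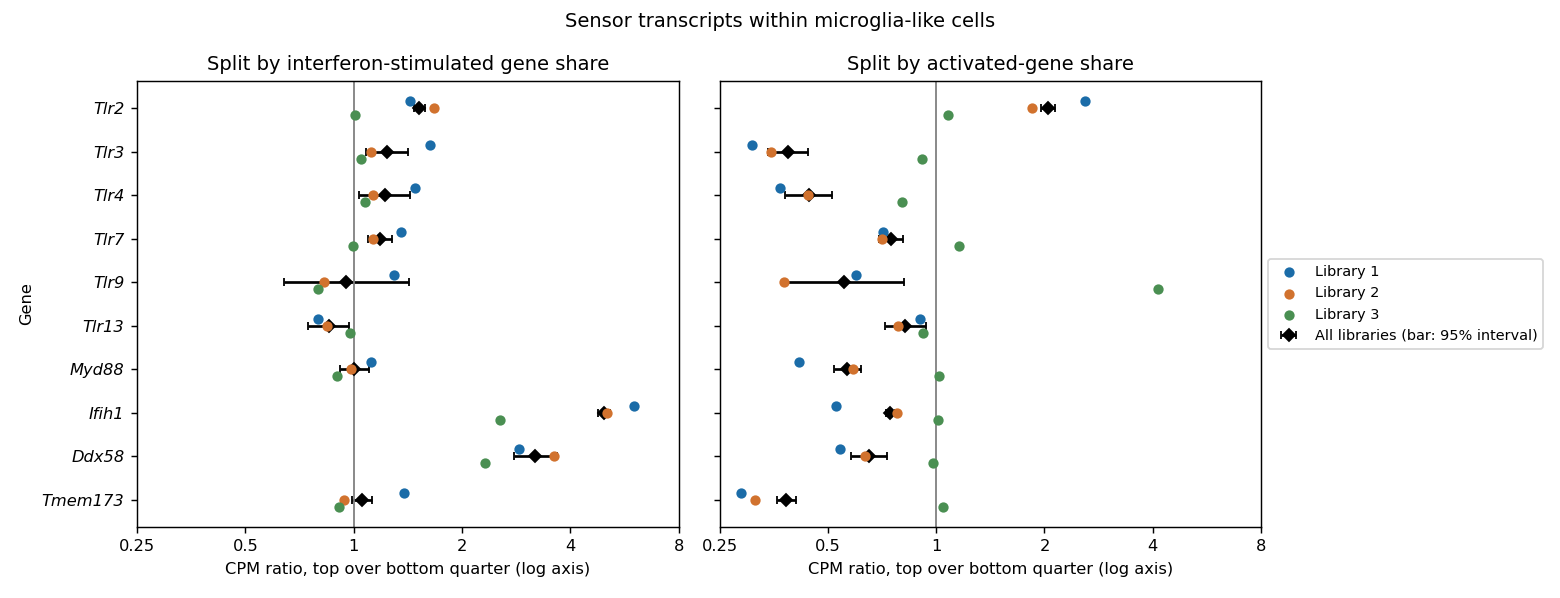
Ratio of CPM (log axis) between the top and bottom group of microglia-like cells, split by interferon-stimulated gene share (left) and by activated-gene share (right); diamonds with bars are all libraries with the 95% interval and coloured points single libraries. Ifih1 and Ddx58 lie at 4.96 and 3.19 on the left, while on the right Tlr2 lies at 2.04 and Tmem173 at 0.383 over all libraries. On the right the points of suffix 3 come from a far weaker split. There 238 of the 511 cells of the top group held a UMI of the listed genes. The diamonds on the right include the cells of suffix 3. Without suffix 3 the ratios were 2.08 for Tlr2 and 0.304 for Tmem173.

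The same split was applied to 3 further classes, chosen after the microglial values had been seen. In T-cell-like cells (621 per group) Ifih1 was at 177 against 14.6 CPM, a ratio of 12.1 (9.07 to 16.5), and Ddx58 at 81.9 against 19.8 CPM, a ratio of 4.15 (3.16 to 5.50). Among genes with at least 100 UMIs they were the 2 sensors with an interval above 1 that were higher in both libraries with enough cells, against 13.6% of genes, and 0 sensors were lower (19.1%). Only Ifih1, Ddx58, Myd88 and Tmem173 reached that minimum, so the other sensors were not counted. The C1q level was 663 CPM in the top and 481 CPM in the bottom group of T-cell-like cells, and its part in these ratios was not tested. Tlr7, with 12 against 2 UMIs, also had an interval above 1 there.

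Endothelial-like cells, nearly all of suffix 3, had ratios of 3.06 (1.97 to 4.91) for Ifih1 and 2.06 (1.34 to 3.22) for Ddx58. Ifih1 and Ddx58 were the only sensors to reach the minimum of 100 UMIs there, and both were higher (10.9% of genes). The other sensors were not counted in either direction (7.15% of genes were lower). C1q was at 276 CPM in the top and 122 CPM in the bottom group of endothelial-like cells, and its part in these ratios was not tested. With cells thinned to 1000 UMIs the direction of Ddx58 turned in endothelial-like cells, to 23.2 in the top against 46.3 CPM in the bottom group. The thinned values rest on few UMIs, from 259 cells per group, and no interval was computed for them. The direction of Ddx58 there was therefore not settled at that depth. Neutrophil-like cells had ratios of 8.74 (3.20 to 33.3) for Ifih1 and 3.06 (1.32 to 8.24) for Ddx58, from 4 and 7 UMIs in the bottom group. Both were under the minimum of 100 UMIs. Tlr2 was the only sensor to reach it there, and its interval included 1 (0.899 to 1.65). The count was therefore 0 sensors in either direction (20.8% of genes in each). Tlr4, also under the minimum with 12 UMIs in the top and 20 in the bottom group, had a ratio of 0.428 (0.191 to 0.919). The interval of Myd88 included 1 in all 3 classes, and that of Tmem173 in T-cell-like and endothelial-like cells.

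**Figure D5:**
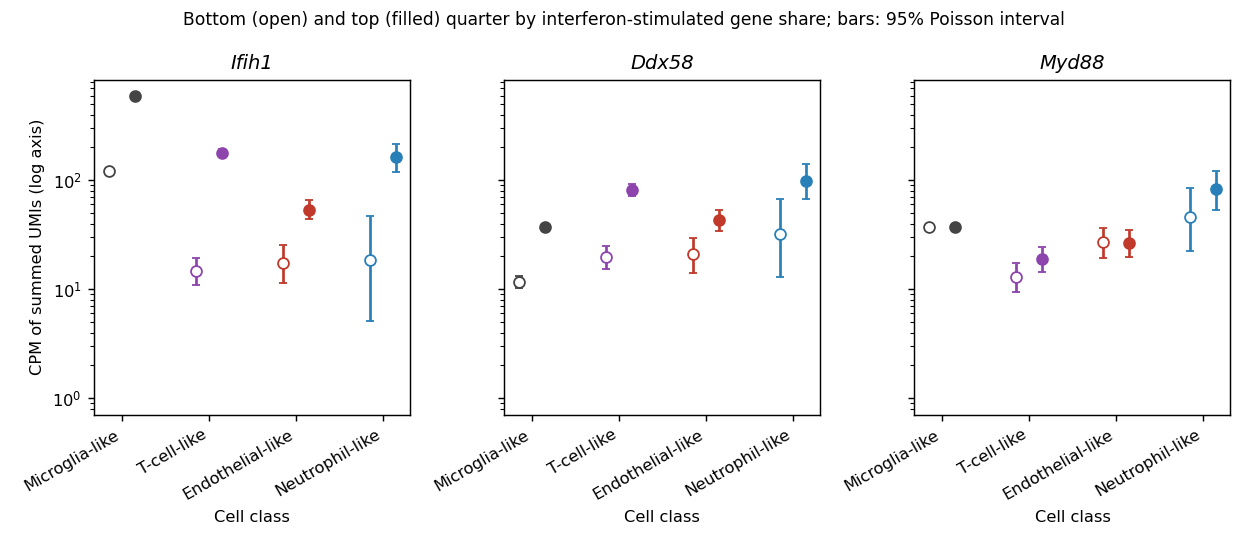
CPM (log axis) of Ifih1, Ddx58 and Myd88 in the bottom (open) and top (filled) group by interferon-stimulated gene share in 4 cell classes; bars are 95% Poisson intervals. Ifih1 and Ddx58 are higher in the top group of each class as plotted, without thinning (Ifih1 in T-cell-like cells 177 against 14.6 CPM), while the intervals of Myd88 overlap within each class.

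The promoter windows of the sensors were searched, after the split had been seen, for a core of the interferon-stimulated response element: GAAA, any 2 bases and GAAA again, read on both strands with overlapping matches allowed. The RefSeq windows (GRCm38.p6) run from 250 bases before to 50 bases after the gene start and were given for 7 of the 10 sensors (not Tlr4, Tlr7 and Tmem173). Ifih1, Ddx58 and Myd88 held 1 match each and Tlr2, Tlr3, Tlr9 and Tlr13 none, where 3.44% of 32851 promoters and 4 of 9 promoters of the interferon-stimulated list held one. The matches are shown with up to 10 bases on each side, 5′ to 3′ on the strand of the gene, with the matched bases in capitals (TTTC where the match is on the other strand), together with 2 genes of the interferon-stimulated list for comparison.
Ifih1: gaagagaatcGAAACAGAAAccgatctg
Ddx58: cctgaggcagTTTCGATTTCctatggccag
Myd88: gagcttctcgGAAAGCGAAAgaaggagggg
Isg15: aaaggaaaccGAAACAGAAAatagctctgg
Ifit1: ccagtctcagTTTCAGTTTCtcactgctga
They lie at chr2:62646206-62646233, chr4:40239804-40239833, chr9:119340039-119340068, chr4:156200865-156200894 and chr19:34640794-34640823, the last on the plus strand and the others on the minus strand. The match of Ifih1 begins 32 bases and that of Ddx58 2 bases after the gene start, and that of Myd88 at position -40. Positions are counted from the RefSeq start of each window. For Myd88, Ddx58, Tlr2, Tlr3 and Tlr13 that start lies inside the GENCODE gene span given above. By that annotation the match of Myd88 is within the gene. The whole windows of Myd88 (chr9:119339969-119340268) and Tlr3 (chr8:45410331-45410630) are within their genes. The bases before the GENCODE starts of Myd88 and Tlr3 were therefore not searched. The 10 matched letters of Ifih1 and this match of Isg15 are the same. In the microglial split the ratios of these 3 sensors were 4.96, 3.19 and 1.01. A match is a description of these letters, and binding was not measured.

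Ifnb1, the interferon beta gene, was itself at 2281 CPM in microglia-like cells, its highest level of the 15 classes. In the 8764 microglia-like cells with an Ifnb1 UMI, Ifih1 was 3.73 times (3.57 to 3.90) and Ddx58 1.57 times (1.39 to 1.77) the level in the 2662 cells without one. The ratios of Ifih1 were 4.34, 3.71 and 2.35 in the 3 libraries. It was the 1 sensor at least 2 times higher, against 1.02% of all genes, and the cells with Ifnb1 had a median of 8059 UMIs against 5245.

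A split by the share of Cst7, Lpl, Spp1 and Itgax, genes of activated microglia, was read mainly in suffix 1 and 2. This split was chosen after values of these data had been seen. In suffix 3 the list had 238 microglia-like cells with a UMI, fewer than the 511 cells of its top group, and its bottom group held 0. The list was at 90.6 CPM in that top group, against 24256 and 40945 CPM in those of suffix 1 and 2. The split of suffix 3 was therefore far weaker. Its ratios were 1.08 for Tlr2 and 1.04 for Tmem173, and the values below leave it out. In suffix 1 and 2 together, 86.7% and 94.6% of cells held a UMI of the list, and the groups held 2344 cells each.

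Tlr2 was at 300.5 CPM in the top and 144 CPM in the bottom group, a ratio of 2.08 (1.98 to 2.18), with 2.59 and 1.84 in suffix 1 and 2. Tmem173 was at 40.1 against 132 CPM (ratio 0.304, 0.283 to 0.326, with 0.288 and 0.314 in the libraries). In suffix 1 and 2, cells rich in the activated genes thus had more Tlr2 and less Tmem173. The ratio was 0.334 for Tlr3, 0.407 for Tlr4, 0.443 for Tlr9, 0.526 for Myd88, 0.604 for Ddx58, 0.693 for Ifih1, 0.704 for Tlr7 and 0.826 for Tlr13. In all, 1 sensor had an interval above 1 and was higher in both libraries (17.0% of all genes), and 9 had one below 1 and were lower in both (58.6% of all genes), so lower values were the more common outcome among all genes too.

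The groups differed in depth, with a median of 14412.5 UMIs in the top and 5566 in the bottom group. Thinned to 1000 UMIs, Tlr2 was at 302 against 134 CPM and Tmem173 at 37.5 against 148 CPM, whereas Tlr13 turned to 20.5 against 17.5 CPM. C1q was at 30087 CPM in the top and 20872 CPM in the bottom group. The bottom groups of suffix 1 and 2 had 132 and 151 CPM of Tlr2 and 138 and 128 CPM of Tmem173, and the whole of suffix 3 had 114 and 156 CPM.

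The 157 microglia-like cells with at least 3 UMIs of the division genes Mki67 and Top2a had 0 sensors at least 2 times higher than cells without such UMIs, against 7.68% of genes. Tlr2 was 1.23 times (1.15 to 1.31) that level, Tmem173 0.591 times (0.503 to 0.690) and Tlr4 0.369 times (0.210 to 0.602), whereas Ifih1 (0.960, 0.906 to 1.02) and Ddx58 (0.919, 0.718 to 1.16) had pooled intervals that include 1. In the 3 libraries the ratios were 0.666, 1.01 and 0.307 for Ifih1 and 0.483, 1.03 and 1.09 for Ddx58, so the libraries did not share a direction. The dividing cells were deeper, with a median of 19526 against 7245 UMIs.

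Among T-cell-like cells, Ifih1 was at 48.0 CPM in the 1435 cells with Cd8a or Cd8b1 and no Cd4 UMI and at 64.6 CPM in the 229 with Cd4 and no Cd8a or Cd8b1 UMI, a ratio of 0.743 (0.591 to 0.941). Tmem173 was at 23.3 against 36.8 CPM (0.633, 0.465 to 0.875), whereas Ddx58 was at 40.3 against 39.6 CPM (1.02, 0.768 to 1.37). These subsets too were chosen after the class values had been seen. They pooled the 3 libraries, and their values were not taken library by library. Irf7 in T-cell-like cells was at 69.8, 146 and 33.1 CPM in suffix 1, 2 and 3. The part of library make-up in these ratios was not tested.

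The partners of the sensors were taken from a list of 36 genes, of which 33 had at least 100 UMIs. Neutrophil-like cells had the highest CPM of 15 of the 33, where 6.27% of all genes were highest there, and microglia-like cells of 3 (3.23% of all genes). The microglial ones were Unc93b1, Mb21d1 and Aim2. Unc93b1, the chaperone that brings endosomal TLRs to their compartment, was at 366 CPM (next 339 CPM in border-macrophage-like cells). Mb21d1 encodes cGAS, which makes the messenger that activates Tmem173, and was at 20.1 CPM (next 18.4 CPM in border-macrophage-like cells). Aim2, another DNA sensor, was at 63.6 CPM (next 58.8 CPM in neutrophil-like cells). For Mb21d1 and Aim2 the next class was close and far smaller, with 191 and 303 cells. Their first place is therefore not settled by these values. For Unc93b1 the order rests on suffix 3 (512 against 328 CPM), since border-macrophage-like cells were higher in suffix 1 (415 against 346 CPM) and suffix 2 (420 against 343 CPM), with 16 cells each. The neutrophil-like ones included Cd14, which hands lipopolysaccharide to Tlr4 (1288 CPM, 784 CPM in microglia-like cells), Irak2, a kinase downstream of Myd88 (278 CPM), Nlrp3, an inflammasome sensor (1569 CPM), and Nfkbia, the NF-kB inhibitor (9104 CPM). Ly96, the Tlr4 partner MD-2, was highest in border-macrophage-like cells at 102 CPM, followed by microglia-like cells at 39.8 CPM. Tlr4 was also higher in the former than in the latter. Its highest class was neutrophil-like, however, and for Ly96 that class lay below microglia-like cells. The receptor genes Tlr1 and Tlr6, whose products pair with Tlr2, were at 10.9 and 4.57 CPM in microglia-like cells, and Tlr6 was at 31.6 CPM in neutrophil-like cells. Mavs, the adaptor of Ifih1 and Ddx58, had its highest value in border-macrophage-like cells (12.3 CPM, next 12.2 CPM in mural-like cells) and 8.96 CPM in microglia-like cells. Of 4 output genes of these pathways, Ifnb1, Tnf (1591 CPM) and Cxcl10 (4469 CPM) were highest in microglia-like cells and Il1b (7483 CPM) in neutrophil-like cells.

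Across the 15 classes, the genes whose log2(CPM + 1) pattern was most like that of a sensor were found among 14790 genes by Pearson's r, which is given as a description since the classes share libraries and depth. For Ifih1 they were Naip5 (0.943), Isg15 (0.937) and Parp14 (0.924), for Ddx58 Rtp4 (0.894), Igtp (0.892) and St3gal6 (0.878), and for Tlr7 C3ar1 (0.971), Tbxas1 (0.970) and Csf1r (0.954). Tlr3 was most like Eva1a (0.905), Tlr2 most like Gm46224 (0.989) and Mpeg1 (0.970), Tlr13 most like B430306N03Rik (0.954), Myd88 most like Ccrl2 (0.931), Tlr4 most like Gm33370 (0.909) and Tmem173 most like Il3ra (0.919). Between the sensors, r was highest for Tlr2 and Tlr13 (0.904), and for Tlr9, which has few UMIs, the nearest was Rpl9-ps1 (0.962). Tlr3 had no r above 0.263 with any other sensor.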

How the data were processed

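The data were scRNA-seq libraries of control, ischemic stroke and hemorrhagic stroke mouse brain (10x Genomics 3′ v3 kit), 1 library per condition, in 1 pooled matrix. Per the labels and the study's methods, the authors made the deposited UMI counts with Cell Ranger 3.1.0 and STAR on mm10, with reads down-sampled across libraries. Each deposited count is a raw UMI number, not scaled per cell, and down-sampling can lower it in deeper libraries. Totals were 72498768, 105957232 and 69270514 UMIs in suffix 1, 2 and 3, with 35968 barcodes and medians of 5326.5 to 5733 UMIs. Of these, 110 barcode sequences occurred in 2 libraries. Cell annotations were not used here.

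Barcodes with at least 1000 UMIs and at most 30% mitochondrial UMIs were gated by raw marker UMIs (at least 3 UMIs and a share set from the marker distributions). Barcodes in several gates (1446) or none (1558) were left out, which stands in for a doublet caller. No gene test was run: UMIs were summed per class into CPM, with exact Poisson, Clopper-Pearson and conditional binomial intervals (95%) for counting error, in Python 3.11.15 with NumPy 2.4.6 and SciPy 1.17.1. The steps were tested on simulated cells. The named genes were the 10 sensors, the 36 partners, 4 outputs, the markers and, for each sensor, the 3 genes of the most similar class pattern. The sensors, gene lists and comparisons were chosen with earlier results of these data known. Positions are from GENCODE M21. A 3′ count is not per length, so levels were compared between classes and not between genes. Alternatives were the depth and mitochondrial limits, doubled gate thresholds, thinning, equal library weights, assignment of cells in several gates, leaving out the deepest cells or each library, and another carry-over reference.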

Additional observations from a re-analysis of the deposited data

Results flagged for a closer look

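All 10 sensor genes had more than 3 UMIs in the 3986 barcodes that the depth and mitochondrial limits left out, barcodes that the comparisons above do not use. Ifih1 was at 225 CPM there (211 to 241), Tlr2 at 67.7 CPM (59.8 to 76.4), Tmem173 at 28.6 CPM and Tlr9 at 2.32 CPM. These levels lie between those of the microglia-like and the non-myeloid classes for Ifih1 and Tlr2.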

How the results depend on the processing

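The number of sensors highest in microglia-like cells was 3 or 4, and with each library left out in turn it was 3 to 4. Tlr7 joined when cells were thinned to 1000 UMIs, and replaced Ifih1 when libraries were weighted equally. It also joined when suffix 3 was left out. The border-macrophage-like class, with 16 cells in each of suffix 1 and 2, then fell under 50 cells and was not compared. That entry of Tlr7 is therefore not a change of order between these 2 classes. Ifih1 likewise kept its place in that setting without being compared with border-macrophage-like cells. The number at least 2 times above every non-myeloid class was 5 to 7, and Tmem173 left it without suffix 1 and without suffix 3. Pairs above the C1q level numbered 55 to 80, but classes that fell under 50 cells in a setting were not counted. Without suffix 1 or suffix 2 these were monocyte-like and dendritic-like cells. Without suffix 3 they were dendritic-like, endothelial-like and mural-like cells. The counts without a library thus come from fewer than the 130 pairs and cannot be set directly against 80. The number of sensors higher with the interferon-stimulated share was 5, and 3 after thinning to 1000 UMIs and 3 with all cells split at the median share. It was 4 with doubled gate thresholds, where Tlr2 left, and 6 with at most 10% mitochondrial UMIs. With at least 2000 UMIs it was 5, with Tlr7 in place of Tlr2. Without each library in turn it was 3 to 6, the 3 coming without suffix 1. Of 95 recomputed ratios of microglia-like over T-cell-like CPM, 76 stayed inside the main interval, 19 left it in the same direction and 0 reversed. For the activated-gene split, leaving out suffix 3 was an alternative chosen after seeing the data: 1 sensor was higher with and without it, and 9 were lower without it against 4 with it (34.2% of all genes). The cause of the other shifts was not tested. No paired analysis was possible because each condition has 1 library and the suffixes are not paired with conditions. Depth limits Tlr9 and the classes under 100 cells.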
